A study of Mus musculus with 6 samples.

Results

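Type I interferon response genes were read in mouse bone marrow that lacked the DNA methyltransferase gene Dnmt3a and had been exposed to a PI3K inhibitor or to vehicle. They are 40 genes chosen by name, and all 40 were found among the 14992 genes of the count table. All 40 also passed the filter on low counts, which kept 12806 genes. Every library came from Dnmt3a knockout whole marrow grown in irradiated C57/BL6 recipients. The tested recipients had received an inhibitor of PI3K alpha and beta, kinases that pass growth factor signals to AKT, at 75 mg/kg, and the others vehicle, over 21 days before their marrow was collected. The labels call the transplanted cells leukaemic, give no age, and do not say whether each library is 1 animal, so the p-values below measure the spread between these libraries. No library from marrow with intact Dnmt3a was analysed here. There were 3 inhibitor libraries, numbered 1, 3 and 5, and 3 vehicle libraries, numbered 1, 2 and 3.

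Type I interferons bind the receptor made of Ifnar1 and Ifnar2, whose kinases phosphorylate transcription factors such as Stat2. Stat2 and Irf9 act in a complex that binds the interferon-stimulated response element in the promoters of antiviral genes, and Irf7, itself induced, amplifies interferon production. In marrow, interferon is known to drive blood stem cells out of quiescence.

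The response element was looked for in RefSeq promoter windows (build GRCm38.p6) that reach from 250 bases before to 50 bases after a gene's start. The word searched was GAAA, any 2 bases, then GAAA, or TTTC, any 2 bases, then TTTC for the same word on the other strand, and overlapping matches were each counted. Of the 40 genes 31 matched an entry, and 19 of the 31 (61.3%) held the word, against 1079 of 27025 genes with an entry (3.99%). Of 62 other interferon-stimulated genes with an entry, 27 (43.5%) held it. The windows of 4 genes are shown because the results below turn on them: Irf7 was the gene that passed the test, Bst2 had inhibitor libraries close together and no overlap between groups without passing, Isg15 carries 3 overlapping words, and Ifit1 had the lowest ratio of vehicle 1 to the other vehicles. Capitals mark the words found, and the window of Irf7 holds none.
Irf7 chr7:141266375-141266674, minus strand: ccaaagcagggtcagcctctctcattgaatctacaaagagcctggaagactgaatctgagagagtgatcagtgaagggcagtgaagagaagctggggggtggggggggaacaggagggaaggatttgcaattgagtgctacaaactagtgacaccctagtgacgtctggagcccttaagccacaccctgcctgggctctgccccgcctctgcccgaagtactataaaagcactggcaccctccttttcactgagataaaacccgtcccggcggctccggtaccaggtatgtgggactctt
Bst2 chr8:71537423-71537722, minus strand: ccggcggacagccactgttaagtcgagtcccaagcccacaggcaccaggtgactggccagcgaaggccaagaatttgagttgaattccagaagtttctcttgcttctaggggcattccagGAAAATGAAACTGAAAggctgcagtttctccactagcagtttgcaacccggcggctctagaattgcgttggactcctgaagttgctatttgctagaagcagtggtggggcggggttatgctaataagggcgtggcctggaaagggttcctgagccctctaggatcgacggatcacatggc
Isg15 chr4:156200769-156201068, minus strand: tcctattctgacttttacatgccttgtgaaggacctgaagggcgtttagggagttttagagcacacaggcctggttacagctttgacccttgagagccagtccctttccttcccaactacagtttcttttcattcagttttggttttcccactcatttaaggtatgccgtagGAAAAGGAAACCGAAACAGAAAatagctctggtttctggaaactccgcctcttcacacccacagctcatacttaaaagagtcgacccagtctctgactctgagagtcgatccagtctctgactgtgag
Ifit1 chr19:34640639-34640938, plus strand: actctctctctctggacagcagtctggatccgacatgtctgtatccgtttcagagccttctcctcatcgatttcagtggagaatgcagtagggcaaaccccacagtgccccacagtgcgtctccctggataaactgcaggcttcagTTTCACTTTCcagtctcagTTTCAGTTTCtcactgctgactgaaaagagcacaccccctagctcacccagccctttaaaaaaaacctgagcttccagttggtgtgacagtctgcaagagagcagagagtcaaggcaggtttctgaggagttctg
A match is a run of letters, not a proven site. A window without the exact word, such as that of Irf7, does not show that the gene lacks a response element. The 19 genes with the word had a median log2 fold change of -0.42 and the 12 without it one of -0.20, a difference that was not tested.

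With the inhibitor 1 of the 40 genes passed the test, Irf7, which fell. The test was edgeR's quasi-likelihood test over all genes with Benjamini-Hochberg adjusted p under 0.05. It called 1.83% of the tested genes of the whole table, 1.19% lower and 0.633% higher, so 1 call among 40 genes is near that background. The fold changes lay mostly below 0, with 37 of 40 negative and a median of -0.40 on the log2 scale, against 50% negative among tested genes and a median of 0.000931 over all tested genes. Before adjustment, 11 of the 40 had p under 0.05 with a lower level and 0 with a higher one, against 11.9% and 9.68% of tested genes, 21.6% together. The median moved with single libraries, to -0.0790 without vehicle 2, -0.22 without inhibitor 3, -0.27 without inhibitor 5 and -0.78 without inhibitor 1.

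**Figure D1:**
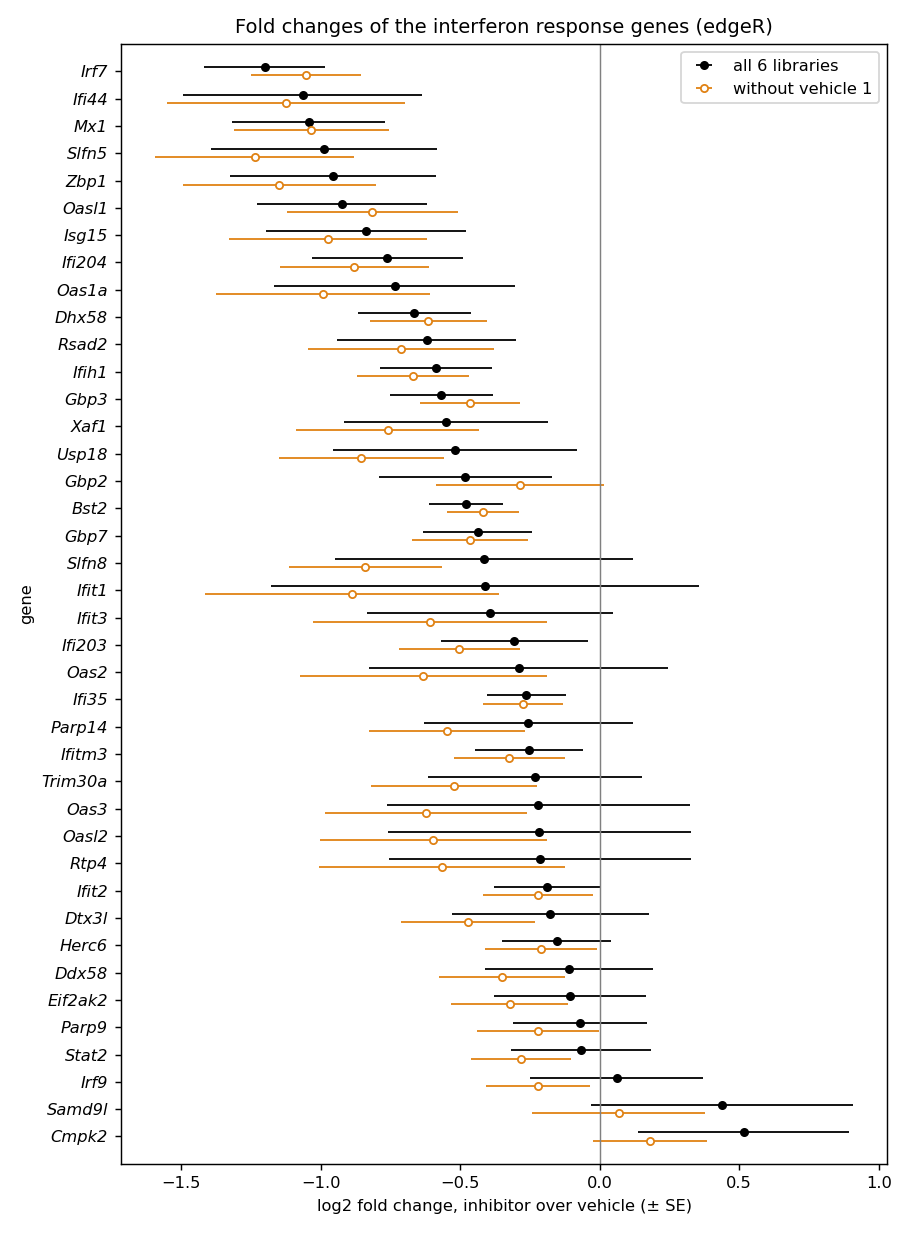
Log2 fold change of inhibitor over vehicle with its standard error (x axis) for each of the 40 genes (y axis), over all 6 libraries (filled) and without vehicle 1 (open). Over all 6 libraries Irf7 lies lowest at -1.20, while without vehicle 1 Slfn5 lies lowest at -1.24, and 3 genes, Irf9, Samd9l and Cmpk2, lie above 0 over all 6 libraries.

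Vehicle 1 had the highest macrophage, monocyte, erythroid and stromal and the lowest neutrophil and B lymphoid marker means of the 6 libraries. A list mean is the mean of log2(CPM + 1), where CPM is the read count scaled to the library's TMM-adjusted size. Macrophage marker means were 4.89, 5.50 and 5.28 in inhibitor libraries 1, 3 and 5, against 8.60, 6.97 and 7.13 in vehicle libraries 1, 2 and 3. Neutrophil marker means were 12.09, 11.95 and 11.78 in inhibitor libraries 1, 3 and 5, against 10.47, 11.27 and 11.15 in vehicle libraries 1, 2 and 3. In vehicle 1 the erythroid and stromal means were 8.41 and 5.785. Genes of plasmacytoid dendritic cells, the main interferon producers of the marrow, had means of 3.83, 3.62 and 3.68 in inhibitor libraries 1, 3 and 5, against 3.96, 4.14 and 4.20 in vehicle libraries 1, 2 and 3. Monocyte marker means were 6.44, 6.21 and 6.14 in inhibitor libraries 1, 3 and 5, against 7.61, 7.05 and 7.24 in vehicle libraries 1, 2 and 3. None of the 20 macrophage, 12 monocyte and 10 plasmacytoid dendritic cell markers was at 0 in every library. Bst2 is on the dendritic list too, as is Irf8 of the production and signalling list read below. Summed macrophage levels ran from 1149 to 1559 CPM in inhibitor libraries and from 3232 to 11944 CPM in vehicle libraries. For plasmacytoid dendritic cell markers the sums ran from 280.1 to 352 and from 373 to 450.2 CPM in the same order of groups. B lymphoid means were 4.16, 3.61 and 5.13 in inhibitor libraries 1, 3 and 5, against 1.90, 2.58 and 3.16 in vehicle libraries 1, 2 and 3. T and NK cell means were 3.60, 3.31 and 3.37 in inhibitor libraries 1, 3 and 5, against 4.02, 4.32 and 3.85 in vehicle libraries 1, 2 and 3. Against 1.19% lower and 0.633% higher over all tested genes, edgeR called 6 of 20 macrophage, 4 of 12 monocyte, 1 of 10 plasmacytoid dendritic and 1 of 10 T and NK cell markers lower, and 2 of 12 neutrophil and 2 of 10 B lymphoid markers higher. Without vehicle 1, against 4.89% lower over all, it called 17 macrophage, 9 monocyte, 2 plasmacytoid dendritic, 5 T and NK cell and 2 stromal markers lower, and, against 3.1% higher over all, 6 neutrophil and 4 B lymphoid markers higher. Of the neutrophil and erythroid markers, 12 of 13 and 9 of 10 were in the table. In whole marrow, fewer cells of a type and less RNA per cell cannot be told apart. The part of cell composition in the interferon values was not tested.

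Over the 40 interferon genes together the libraries of each group spread widely. The list mean was 5.60, 4.86 and 4.83 in inhibitor libraries 1, 3 and 5, against 5.02, 5.93 and 5.44 in vehicle libraries 1, 2 and 3. The groups overlapped, since inhibitor 1 lay above vehicles 1 and 3, and vehicle 1 lay close to inhibitors 3 and 5. Inhibitor 1 was the highest inhibitor library for 40 of 40 genes, against 41.2% of all tested genes. In the 2 further interferon lists read below, it was the highest for 88.6% of the other interferon-stimulated and 84.4% of the production and signalling genes. Vehicle 2 was the highest vehicle library for 35 of 40, against 27.6%, and vehicle 1 the lowest for 27 of 40, against 40.6%. For 17 of the 40 vehicle 1 was the lowest of all 6 libraries, against 30.3% of all tested genes.

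**Figure D2:**
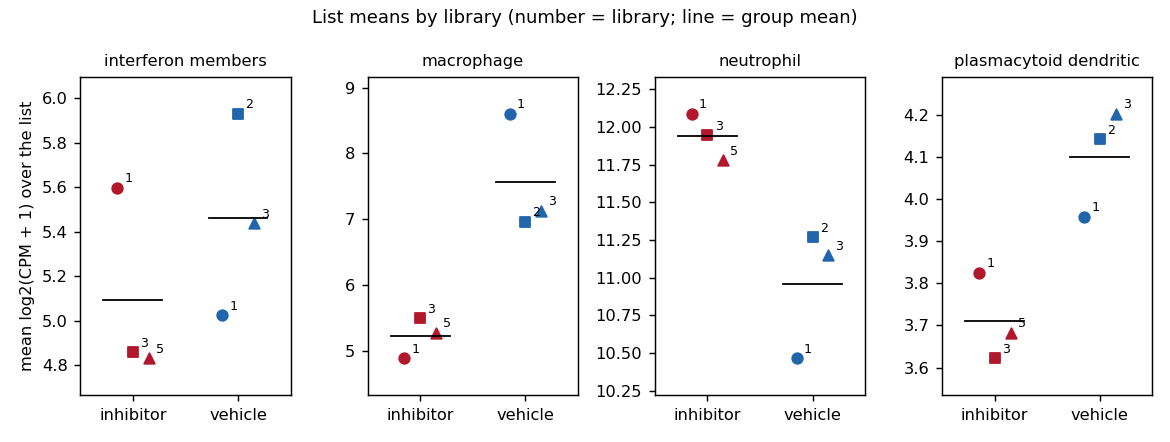
Mean log2(CPM + 1) over each list (y axis, its range differs by panel) for inhibitor and vehicle libraries (x axis); points carry the library number and lines are group means. The interferon means overlap between groups, while the macrophage means of the inhibitor libraries, at most 5.50, lie below every vehicle library.

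Irf7, the transcription factor that amplifies the interferon response (GRCm38 chr7:141262706-141266481), fell with the inhibitor. It stood at 66.1, 45.9 and 44.8 CPM in inhibitor libraries 1, 3 and 5, against 143, 124 and 93.2 CPM in vehicle libraries 1, 2 and 3. Every inhibitor library was below every vehicle library. The group means were 52.2 ± 11.98 CPM with the inhibitor and 120.1 ± 25.3 CPM with vehicle (SD, n = 3 each). Its log2 ratio of inhibitor to vehicle was -1.20 ± 0.22 (edgeR adjusted p = 0.0463; here and below ± after a log2 value is its standard error), which leaves 0.435 of the vehicle level. Without vehicle 1 it was -1.05 (edgeR adjusted p = 0.0226). The call was lost without any other single library, with adjusted p between 0.0745 and 0.183 and log2 fold changes between -1.39 and -1.09. Without vehicle 3 or any inhibitor library, no gene of the whole table passed. In DESeq2 its adjusted p was 6.74e-05. Exons of Irf7 share 45 bases with Phrf1 on the other strand, 1.19% of its exonic bases, and the library kit does not mark strand.

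The partners Irf9 and Stat2, which carry the signal into the nucleus, did not pass. Irf9 (chr14:55603571-55610030) had 102, 78.3 and 69.9 CPM in inhibitor libraries 1, 3 and 5, against 45.4, 110.3 and 83.7 CPM in vehicle libraries 1, 2 and 3. Vehicle 1 was the lowest and vehicle 2 the highest of the 6 libraries, and the groups overlapped. Its log2 fold change of 0.0605 ± 0.31 turned to -0.22 without vehicle 1 and to -0.11 without inhibitor 1. For Stat2 the value was -0.0679 ± 0.25, and it was above 0 without vehicle 2, vehicle 3 or inhibitor 5. Exons of Irf9 share 123 bases, 2.28% of its exonic bases, with the neighbouring gene Rnf31.

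All 4 sensors of foreign nucleic acid had negative values, and none passed. Dhx58, which encodes the RNA helicase LGP2 (chr11:100694884-100704271), had 32.3, 22.8 and 20.6 CPM in inhibitor libraries 1, 3 and 5, against 42.8, 43.6 and 33.6 CPM in vehicle libraries 1, 2 and 3. The groups did not overlap, and the log2 fold change was -0.67 ± 0.20 (edgeR adjusted p = 0.122). Ifih1, which encodes the RNA sensor MDA5 (chr2:62595798-62646255), had 37.2, 25.3 and 25.9 CPM in inhibitor libraries 1, 3 and 5, against 39.02, 53.4 and 40.4 CPM in vehicle libraries 1, 2 and 3. Its groups lay side by side without overlap, 37.2 CPM being the highest inhibitor value and 39.02 CPM the lowest vehicle value. Zbp1, a sensor of left-handed nucleic acid that can trigger cell death (chr2:173206612-173218923), had 21.8, 11.02 and 11.6 CPM in inhibitor libraries 1, 3 and 5, against 20.5, 42.7 and 23.04 CPM in vehicle libraries 1, 2 and 3. There inhibitor 1 lay above vehicle 1, and vehicle 2 stood well above the rest. The log2 fold changes were -0.59 ± 0.20 for Ifih1 and -0.96 ± 0.37 for Zbp1 (edgeR adjusted p = 0.154 and 0.194). Ddx58, which encodes the RNA sensor RIG-I, had -0.11 ± 0.30, with vehicle 1 and inhibitor 5 the lowest libraries, and turned above 0 without vehicle 2 or inhibitor 5.

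OAS enzymes sense double-stranded RNA and make the signal that activates RNase L, the OAS-like proteins are their relatives, and all 5 members had negative values without passing. Oasl1, which in mouse cells represses translation of Irf7 (chr5:114923240-114937915), had 14.8, 9.64 and 7.08 CPM in inhibitor libraries 1, 3 and 5, against 22.8, 22.3 and 14.7 CPM in vehicle libraries 1, 2 and 3. Only inhibitor 1 touched the vehicle range, 14.8 CPM against 14.7 CPM in vehicle 3, and the log2 fold change was -0.92 ± 0.30 (edgeR adjusted p = 0.1405). In the other 4 vehicle 1 was the lowest vehicle library. Oas3 had 155, 80.01 and 60.98 CPM in inhibitor libraries 1, 3 and 5, against 40.8, 179 and 125 CPM in vehicle libraries 1, 2 and 3, so that vehicle 1 was the lowest library of all and inhibitor 1 stood between vehicles 2 and 3. Oas2 and Oasl2 had the same library, vehicle 1, at the bottom, at 15.7 and 27.7 CPM, and vehicle 2 at the top, at 52.7 and 110.5 CPM. Log2 fold changes were -0.73 ± 0.43 for Oas1a, -0.29 ± 0.53 for Oas2, -0.22 ± 0.54 for Oas3 and -0.22 ± 0.54 for Oasl2. Those of Oas2, Oas3 and Oasl2 turned above 0 without vehicle 2, and those of Oas3 and Oasl2 also without inhibitor 5. Oas1a resembles Oas1g and other copies of a gene cluster, so its counts are uncertain where reads match several.

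The 3 IFIT genes, whose proteins bind foreign RNA, had negative values and none passed. Ifit1 (chr19:34640871-34650009) had 17.5, 6.74 and 6.03 CPM in inhibitor libraries 1, 3 and 5, against 2.77, 27.3 and 10.3 CPM in vehicle libraries 1, 2 and 3, on 538, 181 and 213 reads against 97, 987 and 645 reads. Vehicle 1 was at 0.147 of the mean of the other vehicles, the lowest such ratio of the 40 genes, and vehicle 2 was the highest library. The log2 fold change of -0.41 ± 0.77 was smaller than its error and ran from -1.07 to 0.62 with 1 library left out. Ifit3 had -0.39 ± 0.44 and Ifit2 -0.19 ± 0.19, and Ifit1 and Ifit3 turned above 0 without vehicle 2. Counts of Ifit1 and Ifit3 are uncertain because near copies lie beside them in the cluster.

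Of the ISG15 system, Isg15 is a ubiquitin-like protein, Herc6 the mouse ligase that attaches it and Usp18 the protease that removes it and damps the receptor. Isg15 (chr4:156199424-156200818) had 11.8, 5.88 and 8.38 CPM in inhibitor libraries 1, 3 and 5, against 12.3, 23.1 and 11.2 CPM in vehicle libraries 1, 2 and 3. Vehicle 2 stood apart from the other vehicles, and inhibitor 1 lay between vehicles 1 and 3. The log2 fold change was -0.84 ± 0.36 (edgeR adjusted p = 0.234) and -0.43 without vehicle 2. Usp18 had -0.52 ± 0.44 and Herc6 -0.15 ± 0.20, and both turned above 0 without vehicle 2. A transcript on the same strand shares 13.7% of the exonic bases of Herc6.

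Among the other antiviral effectors 9 of 11 values were negative and 0 passed. Mx1, a GTPase against influenza that most inbred mice carry in a defective form (chr16:97447035-97462907), had 5.53, 3.72 and 3.31 CPM in inhibitor libraries 1, 3 and 5, against 8.72, 10.5 and 6.73 CPM in vehicle libraries 1, 2 and 3. No inhibitor library reached the vehicle range, and the log2 fold change was -1.04 ± 0.27 (edgeR adjusted p = 0.0893). Bst2, tetherin, which holds budding virus at the cell surface (chr8:71534255-71537456), had 32.98, 28.9 and 28.8 CPM in inhibitor libraries 1, 3 and 5, against 45.6, 43.9 and 36.8 CPM in vehicle libraries 1, 2 and 3. Its inhibitor libraries lay close together and below every vehicle library, with a log2 fold change of -0.48 ± 0.13 (edgeR adjusted p = 0.101). Ifi44 (chr3:151730922-151749960) was the lowest of the 40 per length and had 3.94, 1.08 and 2.43 CPM in inhibitor libraries 1, 3 and 5, against 4.73, 5.88 and 5.03 CPM in vehicle libraries 1, 2 and 3. Its groups did not overlap, and inhibitor 3, with 29 reads, was the lowest library. The log2 fold change of Ifi44 was -1.06 ± 0.43 (edgeR adjusted p = 0.2096).

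Per length, the most abundant of the 40 was Ifitm3, a membrane protein that blocks viral entry (chr7:141009586-141010770). TPM was computed from the counts and deposited gene lengths to compare genes within a library, and its library scaling is not the TMM scaling of the test, so groups are compared in CPM only. In TPM Ifitm3 had 859, 677 and 559 TPM in inhibitor libraries 1, 3 and 5, against 969, 1153 and 1136 TPM in vehicle libraries 1, 2 and 3. By the mean over all 6 libraries Irf7 and Bst2 came next, at 86.7 and 86.02 TPM, but within the inhibitor libraries Samd9l, at 76.6 TPM, Bst2, Trim30a, Irf9 and Cmpk2 all stood above Irf7, at 43.5 TPM. Over all 6 libraries the median of the 40 genes was 26.1 TPM. In CPM Ifitm3 had 368, 281 and 229 CPM in inhibitor libraries 1, 3 and 5, against 313, 382 and 350.5 CPM in vehicle libraries 1, 2 and 3. In CPM inhibitor 1 lay inside the vehicle range, and the log2 fold change was -0.25 ± 0.19 (edgeR adjusted p = 0.4801).

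Rsad2 and Cmpk2 are neighbours on chromosome 12 that encode viperin, an antiviral enzyme, and a nucleotide kinase. Rsad2 (chr12:26442746-26456452) had 77.3, 41.6 and 44.99 CPM in inhibitor libraries 1, 3 and 5, against 73.00, 118 and 60.6 CPM in vehicle libraries 1, 2 and 3. Cmpk2 (chr12:26469204-26479837) had 110.5, 85.96 and 77.9 CPM in inhibitor libraries 1, 3 and 5, against 30.4, 96.3 and 65.2 CPM in vehicle libraries 1, 2 and 3. Vehicle 1 was by far the lowest library for Cmpk2 and not for Rsad2, and the log2 fold changes had opposite signs, 0.52 ± 0.38 for Cmpk2 and -0.62 ± 0.32 for Rsad2, without either passing. Without vehicle 1 Cmpk2 was at 0.18. Samd9l, an interferon-induced restraint on blood cell growth (chr6:3372257-3399572), had 390.1, 226 and 178 CPM in inhibitor libraries 1, 3 and 5, against 81.4, 282 and 222 CPM in vehicle libraries 1, 2 and 3. Inhibitor 1 was the highest and vehicle 1 the lowest library, and the log2 fold change of 0.44 ± 0.47 was 0.068 without vehicle 1. The remaining effectors did not pass. Their log2 fold changes were -0.55 ± 0.37 for the apoptosis gene Xaf1, -0.26 ± 0.14 for Ifi35, -0.21 ± 0.54 for Rtp4 and -0.11 ± 0.27 for Eif2ak2, the kinase PKR. Rtp4 and Eif2ak2 turned above 0 without vehicle 2 or inhibitor 5. An antisense gene shares 16.8% of the exonic bases of Ifi35, and a transcript on the same strand shares 13.9% of those of Rtp4.

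Ifi204, which encodes a DNA-binding PYHIN protein (chr1:173747293-173766943), had 53.1, 30.5 and 29.4 CPM in inhibitor libraries 1, 3 and 5, against 52.9, 80.5 and 58.1 CPM in vehicle libraries 1, 2 and 3. Inhibitor 1 and vehicle 1 were nearly level, and the log2 fold change was -0.76 ± 0.27 (edgeR adjusted p = 0.166). Its relative Ifi203 had -0.31 ± 0.26, and reads of this gene cluster may match several copies. Gbp3, a guanylate-binding protein that acts on intracellular microbes (chr3:142560026-142573209), had 53.7, 37.96 and 36.1 CPM in inhibitor libraries 1, 3 and 5, against 71.9, 61.4 and 56.1 CPM in vehicle libraries 1, 2 and 3. The groups did not overlap, and the log2 fold change was -0.57 ± 0.19 (edgeR adjusted p = 0.137). Gbp7 had -0.44 ± 0.20 and Gbp2 -0.48 ± 0.31, and for Gbp2 vehicle 1 was the highest vehicle library at 62.9 CPM. A pseudogene on the same strand shares 11.3% of the exonic bases of Gbp7. Trim30a, a brake on inflammatory signalling in mice, had -0.23 ± 0.38, and a value above 0 without vehicle 2.

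Parp9 and Dtx3l, whose products form a complex that modifies histones and ubiquitin, share 458 exonic bases on opposite strands. Reads in that stretch cannot be assigned with a kit that does not mark strand. Their log2 fold changes were -0.0709 ± 0.24 and -0.18 ± 0.35, and that of Parp14 was -0.26 ± 0.38. Parp9 and Dtx3l turned above 0 without vehicle 2, and Parp9 also without inhibitor 3 or 5. The Schlafen genes, which restrain lymphocyte and virus growth, had -0.99 ± 0.40 for Slfn5 and -0.42 ± 0.54 for Slfn8. Without vehicle 2 that of Slfn8 was above 0. Slfn8 had 12.6 CPM in vehicle 1, 0.231 of the mean of the other vehicles, and reads shared with its near copy Slfn9 make it uncertain. Slfn5 passed at an unadjusted p under 0.05, in edgeR over all 6 libraries, and Slfn8 did not. An antisense gene shares 8.84% of the exonic bases of Slfn5.

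**Figure D3:**
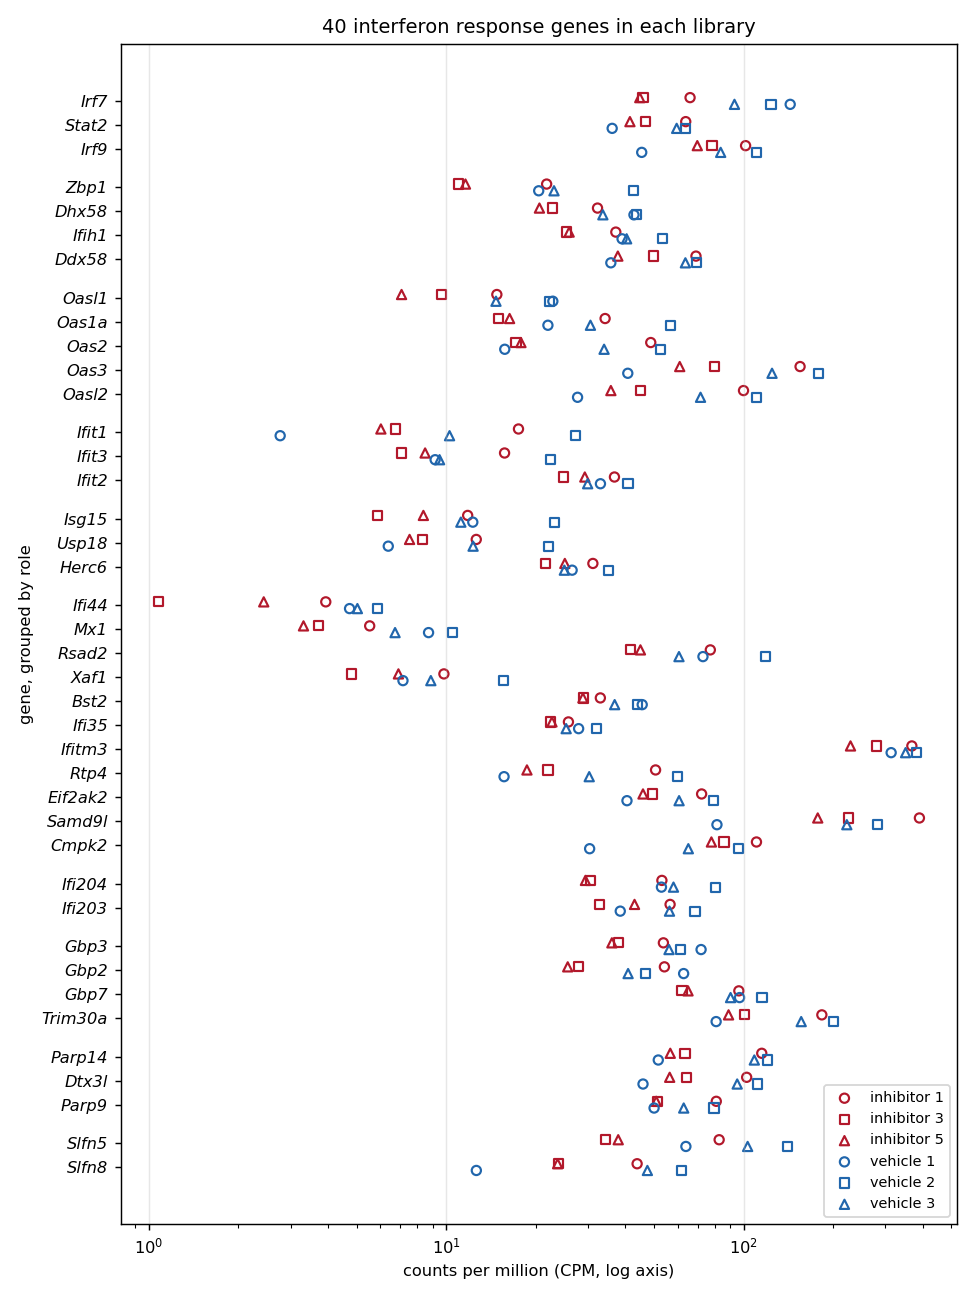
Level of each of the 40 genes in CPM (x axis, log scale) in every library, with genes grouped by role (y axis), inhibitor libraries in red above vehicle libraries in blue, and 1 symbol per library number. Inhibitor 1 is the rightmost red symbol for all 40 genes, and vehicle 1 is the lowest of all 6 libraries for 17 genes.

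The groups did not overlap for 7 of the 40 genes (17.5%), Bst2, Dhx58, Gbp3, Ifi44, Ifih1, Irf7 and Mx1, all lower with the inhibitor. Of all tested genes 30.7% did not overlap, 16.2% lower and 14.4% higher, so the share of the 40 that lay lower was near the background in that direction. The genes also differed in how vehicle 1 stood to the other vehicles. For 13 genes, Cmpk2, Dtx3l, Ifit1, Irf9, Oas2, Oas3, Oasl2, Parp14, Rtp4, Samd9l, Slfn8, Trim30a and Usp18, it was under 0.5 times their mean. For 7 others, Bst2, Dhx58, Gbp2, Gbp3, Irf7, Mx1 and Oasl1, it was above their mean. These limits were chosen after the values were seen. The median log2 ratio of vehicle 1 to the mean of the other vehicles was -0.69 over the 40 genes and 0.0347 over all tested genes. For inhibitor 1 against the mean of the other inhibitor libraries it was 0.66 over the 40 genes and 0.00595 over all.

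**Figure D4:**
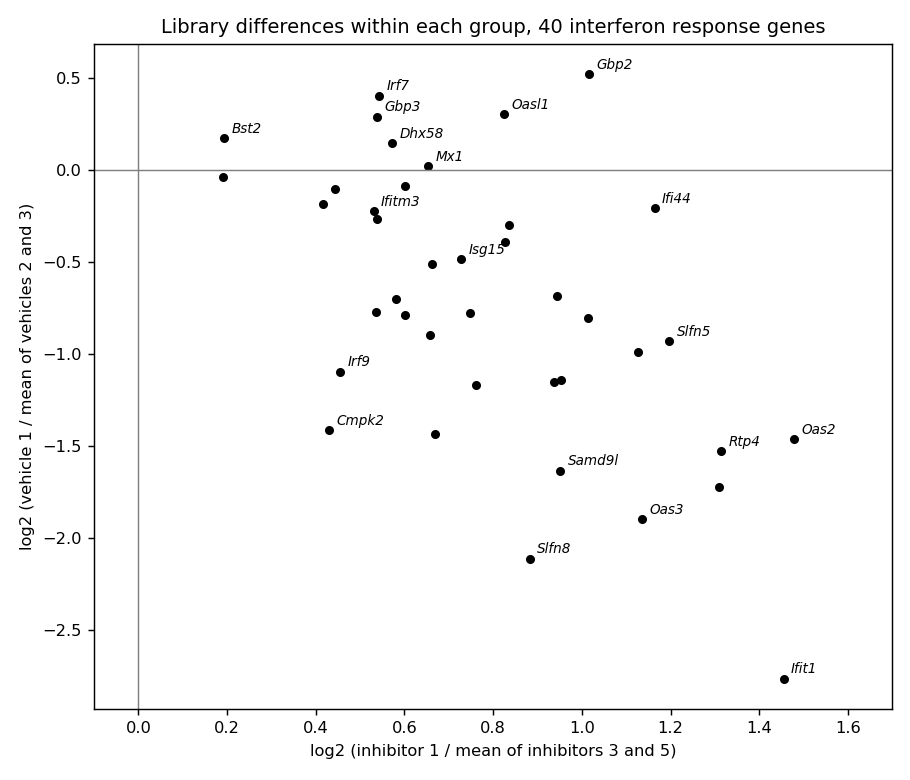
Each point is 1 of the 40 genes, with the log2 ratio of inhibitor 1 to the mean of inhibitors 3 and 5 (x axis) and of vehicle 1 to the mean of vehicles 2 and 3 (y axis). All points lie right of 0, and 7 lie above 0 on the y axis, among them Irf7, Mx1 and Bst2, while Ifit1 lies lowest.

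Without vehicle 1 the test again called 1 of the 40 genes, Irf7, against 7.99% of tested genes, 4.89% lower and 3.1% higher. Then 38 of 40 values were negative, against 47.1% of tested genes, and the median was -0.58, against 0.0242 over all. DESeq2 over all 6 libraries called 5 lower, Bst2, Dhx58, Irf7, Mx1 and Oasl1, and 0 higher, against 6.03% and 3.95% of all genes, 9.98% together. Without vehicle 1 DESeq2 called 8 lower, Ifi204, Ifih1, Irf7, Isg15, Mx1, Slfn8, Usp18 and Zbp1, and 0 higher. Of the 12806 tested genes it then called 981 lower and 884 higher. Only Irf7 and Mx1 were in both sets, and Bst2, Dhx58 and Oasl1 then had DESeq2 adjusted p of 0.0503, 0.0514 and 0.0614. The authors' deposited table was made with a test that no source used here names. It gives the 5 genes that DESeq2 called over all 6 libraries an adjusted p under 0.05, against 6.05% lower and 3.9% higher among all its genes. In the authors' deposited table Irf7 has a log2 fold change of -1.19, as in DESeq2 here. The deposited values of the 40 genes lie close to those of DESeq2, so the shared calls are not a separate check. Limma voom with quality weights, which gave vehicle 1 the lowest weight, 0.161, and inhibitor 3 the highest, 4.395, called 20 lower and 0 higher, against 11.6% and 10.7% of tested genes, 22.3% together.

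Other genes of the pathway were read from a list of 37 genes of interferon production and signalling, of which 33 were in the table and 32 tested. In edgeR 3 fell and 0 rose, with 21 of 32 values negative and a median of -0.13, and before adjustment 8 lower and 1 higher genes had p under 0.05. DESeq2 called 1 higher and 7 lower. The shares over the whole table were 1.19% lower and 0.633% higher in edgeR, 11.9% and 9.68% before adjustment, and 6.03% and 3.95% in DESeq2. Irf5, a transcription factor of inflammatory and interferon genes in myeloid cells, had 69.9, 65.6 and 62.03 CPM in inhibitor libraries 1, 3 and 5, against 116, 118 and 125 CPM in vehicle libraries 1, 2 and 3. The libraries of each group lay close together, vehicle 1 included, and the log2 fold change was -0.86 ± 0.11 (edgeR adjusted p = 0.0241). Trex1, an exonuclease that clears cytosolic DNA and so limits interferon, had 26.5, 19.8 and 18.9 CPM in inhibitor libraries 1, 3 and 5, against 38.5, 42.98 and 39.2 CPM in vehicle libraries 1, 2 and 3. Its groups did not overlap, and its log2 change was -0.89 ± 0.16 (edgeR adjusted p = 0.0473). Tlr3, an endosomal receptor for double-stranded RNA, was low, with 1.53, 1.04 and 1.104 CPM in inhibitor libraries 1, 3 and 5, against 5.73, 4.31 and 3.23 CPM in vehicle libraries 1, 2 and 3. Every inhibitor library was below every vehicle library, and the log2 fold change was -1.85 ± 0.32 (edgeR adjusted p = 0.0428).

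The receptor genes did not pass. Ifnar1 had 110.4, 88.3 and 80.6 CPM in inhibitor libraries 1, 3 and 5, against 110.9, 110.6 and 124.5 CPM in vehicle libraries 1, 2 and 3. Its log2 fold change was -0.31 ± 0.15 (edgeR adjusted p = 0.269). Every inhibitor library was below every vehicle library, but inhibitor 1 was nearly level with vehicles 1 and 2. Ifnar2 had 127, 111 and 101 CPM in inhibitor libraries 1, 3 and 5, against 133, 124 and 135 CPM in vehicle libraries 1, 2 and 3, and -0.21 ± 0.12 on the log2 scale (edgeR adjusted p = 0.359). Ifng, the type II interferon, had 2, 1 and 2 reads in inhibitor libraries 1, 3 and 5 and 16, 16 and 8 in vehicle libraries 1, 2 and 3, and did not pass the filter. Ifnb1 was not among the 33 genes of the production and signalling list found in the count table, so it has no value here.

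A further list named 77 interferon-stimulated genes other than the 40, of which 72 were in the table and 70 tested. In edgeR 2 fell and 0 rose, with 48 of 70 values negative and a median of -0.17, and before adjustment 13 lower and 3 higher genes had p under 0.05. DESeq2 called 1 higher and 11 lower. The whole table again gave 1.19% lower and 0.633% higher in edgeR, 11.9% and 9.68% before adjustment, and 6.03% and 3.95% in DESeq2. Ly6e, a membrane protein that modulates viral entry, had 646, 614 and 583 CPM in inhibitor libraries 1, 3 and 5, against 1087, 998 and 1006 CPM in vehicle libraries 1, 2 and 3. Its groups were tight and did not overlap, and the log2 fold change was -0.75 ± 0.13 (edgeR adjusted p = 0.0428). Ifi205, a PYHIN gene related to Ifi204, had 1.43, 1.64 and 1.19 CPM in inhibitor libraries 1, 3 and 5, against 10.7, 5.22 and 5.01 CPM in vehicle libraries 1, 2 and 3. It was lower in every inhibitor library than in any vehicle library, with a log2 fold change of -2.30 ± 0.37 (edgeR adjusted p = 0.0403) and -1.85 without vehicle 1. The calls of Irf5, Trex1, Tlr3, Ly6e and Ifi205 were each lost when vehicle 2, vehicle 3 or any inhibitor library was left out. Leaving out vehicle 2 left 7 calls higher and 84 lower over the whole table, and in the other 4 fits there were 0.

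**Figure D5:**
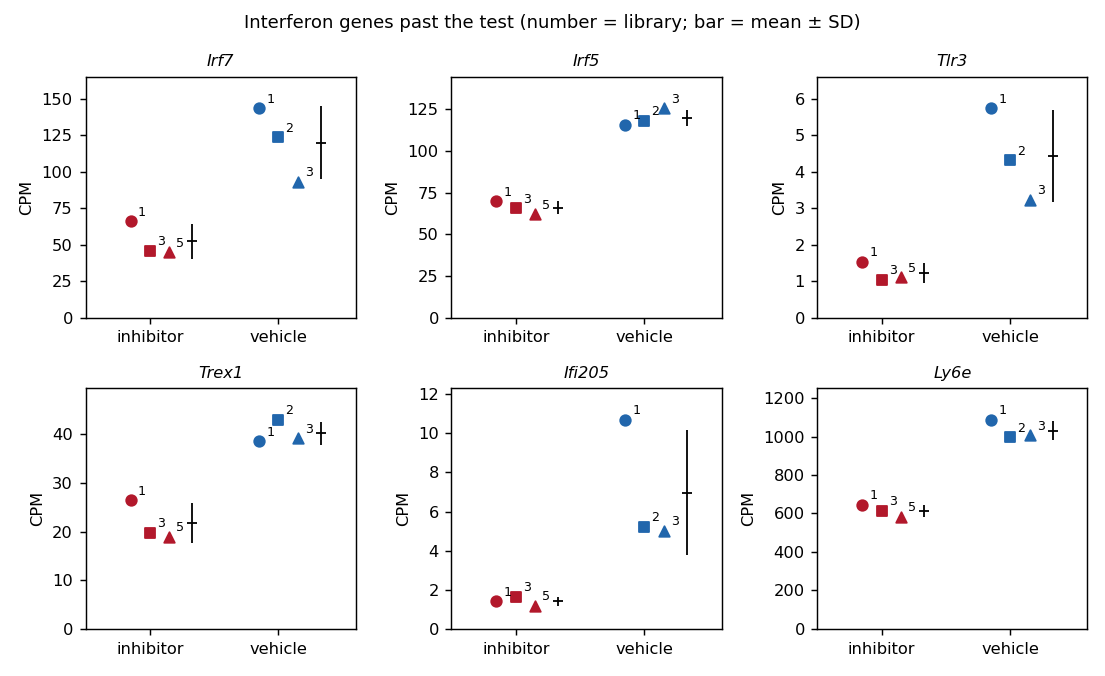
CPM (y axis, from 0) of the 6 interferon genes that passed the edgeR test over all 6 libraries, in inhibitor and vehicle libraries (x axis), with library numbers and group mean ± SD (n = 3). In all 6 panels every inhibitor library lies below every vehicle library; the genes are shown because they passed.

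Dnmt3a itself, which the transplanted cells lack, was read at 20.2, 15.4 and 15.5 CPM in inhibitor libraries 1, 3 and 5, against 24.9, 17.3 and 18.9 CPM in vehicle libraries 1, 2 and 3. The transplanted cells of both groups lack Dnmt3a, so the level does not test the labels. Reads may come from the rest of a partly deleted gene or from recipient cells, and their source was not tested. Total counts per library ran from 28198638 to 59384880, and the 40 genes had between 29 and 22029 reads per library.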

How the data were processed

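RNA was measured in 6 mouse marrow libraries. Per the labels' protocols, a SMART-Seq v4 kit gave the cDNA and Nextera XT, an unstranded chemistry, the libraries. STAR, featureCounts and mm10 are named in the submitters' processing notes. The authors deposited raw read counts per gene for 14992 genes. Per the file headers, the deposited table also holds gene lengths and a comparison by the authors: a fold change (ratio), a log2 fold change, and p-values raw and adjusted. No source used here gives a filter on genes or the treatment of reads that match several.

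The 40 genes and the further lists were chosen with earlier results of these data known. Groups follow the titles. The test was that of edgeR 4.0.16 (R 4.3.3), using filterByExpr, TMM scaling and glmQLFTest on group, with adjustment over all 12806 tested genes. Standard errors were computed as the absolute log2 fold change over the root of the F statistic. CPM uses TMM-scaled library sizes. The coefficient of variation between libraries was 25.2%. Gene positions are from GENCODE M21 (GRCm38, the build named mm10).

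Genes with values for every library are those past the test, the 10 smallest p, the 3 highest per length, and those whose sign turns without vehicle 1. From the further lists, called genes, Ifnar1, Ifnar2, Ifnb1 and Ifng were named, and 1 gene that the rule also names is not reported here. Oas3, Ifit1, Isg15, Rsad2, Cmpk2 and Samd9l were added after their values were seen. Alternatives were DESeq2 1.42.0, its size factors, upper-quartile scaling, limma 3.58.1 voom with and without quality weights, no filter, a filter of 5 CPM in 3 libraries, adjusted p under 0.10, a replicate block, each library left out, and for list means a pseudocount of 0.1 or 5 in place of 1 and unscaled CPM. DESeq2 without vehicle 1 was added after seeing the data. No pair of libraries was a duplicate: the closest, vehicles 2 and 3, had a chi-square per degree of freedom of 29.6. The steps were tested on simulated data.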

Additional observations from a re-analysis of the deposited data

How the results depend on the processing

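Of all tested genes the edgeR test called 81 higher and 153 lower. DESeq2 called 592 and 904, voom 30 and 55, voom with quality weights 1374 and 1483, adjusted p under 0.10 gave 422 and 634, and leaving out 1 library gave 0 to 401 higher and 0 to 633 lower. Of the 40 genes 0 were called higher under any alternative, and 1 lower, against 5 by DESeq2, 20 by voom with quality weights, 0 by voom, 2 at adjusted p under 0.10, 8 by DESeq2 without vehicle 1 (which called 884 higher and 981 lower of the 12806 genes), and 0 to 1 with 1 library left out. Of the production and signalling list 0 were called higher and 3 lower, against 1 and 7 by DESeq2, 2 and 12 by voom with quality weights, 1 lower by voom, 1 and 5 at adjusted p under 0.10, 1 and 9 by DESeq2 without vehicle 1, and 0 to 7 lower with 1 library left out. Of the other interferon-stimulated list 0 were higher and 2 lower, against 1 and 11 by DESeq2, 4 and 20 by voom with quality weights, 0 lower by voom, 1 and 7 at adjusted p under 0.10, 3 and 12 by DESeq2 without vehicle 1, and 0 to 1 higher and 0 to 8 lower with 1 library left out. In the 4 fits that left out vehicle 3 or an inhibitor library, 0 genes of the whole table passed.

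The titles give both groups a library 1 and a library 3, but a shared number is all that pairs them: the deviations of the same-numbered libraries correlated at -0.43 and -0.0455 across genes. With the number as a replicate block, 0 genes were called higher and 7 lower, with 0 lower among the 40 genes and in either further list. In that fit the group difference rested on libraries 1 and 3 of each group. The remaining library of each group shared its number with no other and added nothing to the difference. The block fit therefore cannot tell pairing from the loss of those libraries. The median of the 40 genes was then -0.0497, and the values that turned were 0.23 for Stat2, 1.01 for Ifit1, 0.18 for Ifit3, 0.32 for Oas2, 0.64 for Oas3, 0.59 for Oasl2, 0.21 for Usp18, 0.61 for Rtp4, 0.30 for Ddx58, 0.27 for Trim30a, 0.20 for Parp9, 0.19 for Parp14, 0.30 for Dtx3l, 0.0124 for Herc6, 0.27 for Eif2ak2, 0.40 for Slfn8. For Irf7 adjusted p was 0.147 with the block and 0.0551 under voom. Under voom with quality weights the turned values were -0.22 for Irf9, -0.0356 for Samd9l, and under DESeq2 without vehicle 1 -0.23 for Irf9. With 1 library left out, values that turned in at least 1 fit ran -0.22 to 0.36 for Irf9, -0.28 to 0.0819 for Stat2, -1.07 to 0.62 for Ifit1, -0.81 to 0.16 for Ifit3, -0.96 to 0.17 for Oas2, -0.71 to 0.25 for Oas3, -0.79 to 0.28 for Oasl2, -0.85 to 0.0179 for Usp18, -0.79 to 0.40 for Rtp4, -0.36 to 0.0773 for Ddx58, -0.62 to 0.0673 for Trim30a, -0.32 to 0.11 for Parp9, -0.48 to 0.0762 for Dtx3l, -0.30 to 0.012 for Herc6, -0.33 to 0.14 for Eif2ak2, -0.84 to 0.0154 for Slfn8. Signs turned for 16 of the 40 genes with the block, 15 without vehicle 2 and 7 without inhibitor 5. The cause of these changes was not tested. DESeq2 size factors, upper-quartile scaling and both other filters changed 0 calls and 0 signs among the 40 genes, except that Ifi44 was not tested at 5 CPM in 3 libraries. The median of the 40 genes ran from -0.78 to -0.0497 over all alternatives, and the list means of each library moved by less than the spread of its group under the other pseudocounts and unscaled CPM.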
